A study of Mus musculus with 6 samples.

Results

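The genes described here present antigen to T cells or are switched on by interferons. They were chosen by name: every row of the deposited gene table whose symbol began with H2- (the mouse major histocompatibility complex, MHC), or that named B2m, the Tap, Tapbp and immunoproteasome genes, Nlrc5, Ciita, the interferon regulatory factors (Irf), the interferon-activated STAT factors, or families of interferon-stimulated genes (Ifi, Ifit, Ifitm, Isg, Oas, Mx, Gbp, Irgm, Iigp1, Usp18, Rsad2, Bst2). This gave 110 of 25302 rows, in 12 groups by role. RNA was sequenced from biliary epithelial cells, which line the bile ducts, taken from mouse liver, in 3 Control samples (genotype Sox9fl/fl) and 3 Sox9cKO samples (genotype Sox9fl/fl:AlbCre+/-). Both groups therefore carry floxed alleles of Sox9, a transcription factor of biliary cells, and only the second carries Cre, whose expression is driven by the albumin promoter, which is active in hepatocytes and in the embryonic cells from which hepatocytes and biliary cells both arise. The labels give no age, sex or number of animals per sample, and do not say whether the replicates are separate animals, so the p-values measure the spread between these samples.

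MHC class I molecules carry peptides from inside the cell to CD8 T cells and are made by nearly every nucleated cell. Class II molecules carry peptides from endocytosed protein to CD4 T cells and are made mainly by professional antigen presenting cells, though epithelia exposed to interferon gamma can make them. Type I interferons signal through a complex of STAT factors and IRF9 to an element in target promoters called ISRE, and interferon gamma signals through a STAT dimer to an element called GAS and, by inducing IRF1 and NLRC5 or CIITA, to the class I and class II genes.

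All levels are normalized counts, that is, reads assigned to a gene divided by 1 size factor per library. The 6 libraries held between 11883496 and 16191990 reads. Sox9 itself had 6211, 6043 and 6293 normalized counts in the Control samples and 3363, 3165 and 3340 in the Sox9cKO samples (replicates 1, 2 and 3 in this order, as everywhere below), or 53.2% of Control, so the libraries matched their labels and kept Sox9 RNA. Summed levels of 18 biliary epithelial markers, such as Krt19 and Epcam, lay between 208810 and 281660, with overlap between the groups. A total of 20 endothelial markers, such as Kdr and Stab2, were also present and differed widely between libraries of the same group, with sums of 21926, 71336 and 3331 in Control and 56425, 72761 and 11939 in Sox9cKO. Hepatocyte markers differed unevenly between the genotypes. In limma without the block 8 of 18 passed as higher, where 2.03% of all tested genes did, and 3 of 18 were below 0. Ttr was lower for each replicate number, at 77% of Control and without a call, and Cyp2e1 was at 105%. Sums over the 18 were 40005, 25765 and 30100 in Control and 68832, 52893 and 84835 in Sox9cKO, without overlap. Of these sums, Apob alone made up 3312, 2241 and 2584 in Control and 16585, 17183 and 32564 in Sox9cKO. Xist, the RNA of the inactive X chromosome, had 31917, 6.50 and 32279 normalized counts in Control and 27852, 6.62 and 10.2 in Sox9cKO. Replicates 1 and 2 were thus alike within their pairs, and replicate 3 was high in Control and near 0 in Sox9cKO. The part of hepatocyte RNA and of the Xist difference in the results below was not tested. As these are bulk samples, fewer cells of a type and less RNA per cell cannot be told apart.

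The promoters show which genes carry an ISRE close to the start, and the sequences below were chosen because they belong to genes whose levels are described in the next paragraphs. RefSeq promoters (GRCm38.p6, an earlier build than the GRCm39 named in the submitters' processing notes) were available for 77 of the 110 genes. The 250 bases before the annotated start were searched on both strands for GAAA followed by any 2 bases and a second GAAA (ISRE) and for TTCNNNGAA (GAS). In 1 gene the 2 motifs overlapped. An ISRE was present in 33 of the 77 genes (42.9%), against 936 of all 27025 genes in the promoter table (3.46%), and a GAS in 13 (16.9%) against 8.13%. The ISRE was found in 8 of 8 p200 genes, 7 of 8 interferon-induced GTPases and 13 of 23 antiviral effectors. Each line gives the gene's own strand from 5′ to 3′, for up to 15 bases on each side of the ISRE nearest to the start, with every ISRE match in that window in capitals. The capitals hold 2 overlapping matches in Irgm1, 3 in Isg15 and 1 in each of the others. Where the capitals begin with TTTC the match lies on the opposite strand.
Irgm1, chr11:48871421-48871459, minus strand: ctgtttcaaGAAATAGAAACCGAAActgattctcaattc
Irgm2, chr11:58214898-58214937, plus strand: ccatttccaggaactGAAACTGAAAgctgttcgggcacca
Gbp2, chr3:142620589-142620628, plus strand: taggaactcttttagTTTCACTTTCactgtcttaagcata
B2m, chr2:122147533-122147572, plus strand: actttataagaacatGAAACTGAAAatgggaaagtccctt
Isg15, chr4:156200860-156200899, minus strand: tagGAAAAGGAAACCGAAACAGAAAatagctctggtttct
Ifit1, chr19:34640789-34640828, plus strand: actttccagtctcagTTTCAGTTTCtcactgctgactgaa
Ifi207, chr1:173741826-173741865, minus strand: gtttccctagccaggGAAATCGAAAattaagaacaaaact
A match is a description of the letters in this window and not evidence of binding. The GTPase genes Irgm1, Irgm2 and Gbp2 and the antiviral genes Isg15 and Ifit1 all hold the motif. As the next paragraphs show, the first 3 were lower in Sox9cKO in every pair of replicates, while the levels of Isg15 and Ifit1 overlapped between the genotypes. Within the set, 11 genes were called lower when limma took the replicate pairs into account, as described below. A promoter was available for 8 of these 11, and 3 of the 8 (37.5%) held an ISRE, namely Irgm1, Irgm2 and Gbp2. This share was not above the 42.9% of the whole set. Of the 3 genes called higher in the same way, 0 held an ISRE.

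**Figure D1:**
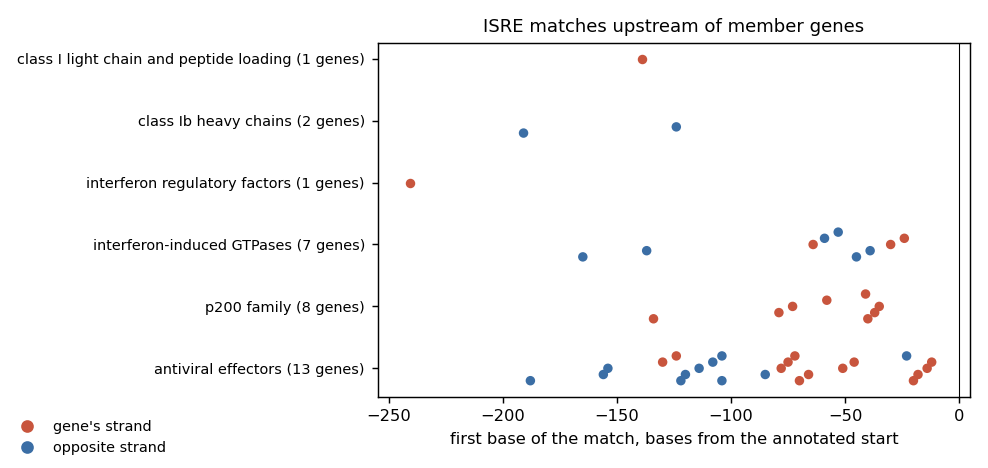
Position of each ISRE match (x axis, bases from the annotated gene start, which is at 0) in the promoters of the genes that hold one, apart from the STAT factors, by role group (y axis, number of genes with a match in brackets), with red for the gene's own strand and blue for the opposite strand. Matches in the p200 family all lie on the gene's strand, and those in the antiviral effectors are spread over both strands.

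The GTPase genes Irgm1, Irgm2 and Gbp2 were much lower in the Sox9cKO samples, while the median of the whole set was only a little below 0 and its sign depended on single libraries. Of the 110 genes, 97 had a mean of at least 10 normalized counts and were tested, and 13 were too low. The log2 fold change (Sox9cKO minus Control, on the log2(value + 1) scale) was below 0 in 62 of the 97, with a median of -0.19, against a median of 0.036 over all 17153 tested genes, of which 45.8% were below 0. Below 0 were 44 of 91 without Control replicate 2, 44 of 97 without Sox9cKO replicate 3 and 46 of 97 with sample weights, where the medians were above 0 (0.063, 0.088 and 0.086). In 35 of the 97 (36.1%) the Sox9cKO sample was the lower one for all 3 replicate numbers, against 21.8% of all tested genes. It was the higher one for all 3 in 11 (11.3%), against 26.7% of all tested genes.

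Few of these differences passed a test. In the fit without pairing (limma, Benjamini-Hochberg over all tested genes, threshold 0.05), 1 of the 97 passed, H2-Ob, which was lower (1.03%, where 2.97% of all tested genes passed, 0.939% as lower and 2.03% as higher). At an unadjusted p under 0.05 there were 21. Over all tested genes, libraries that share a replicate number departed from their group means in a like way (correlations 0.207, 0.472 and 0.542). Over the 97 genes, replicates 2 and 3 did so (0.60 and 0.68) but replicate 1 did not (-0.04). Limma with the replicate number as a block called 14 of the 97 (14.4%, where 8.05% of all tested genes passed). Of these, 11 were lower (11.3%, against 2.99%) and 3 were higher (3.09%, against 5.06%). Counting only genes whose groups do not overlap, there were 20 of 97 (20.6%, against 24.2%), of which 14 were lower (14.4%, against 10.8%) and 6 higher (6.19%, against 13.4%). The number of block calls was lowest without the replicate 3 pair, in this set as over all genes. Without it, 1 of 98 tested genes of the set (Irgm1) was called, against 11 of 97 without replicate 1 and 18 of 91 without replicate 2. Over all genes these fits called 232 of 17165, 1049 of 17242 and 1504 of 16974. Replicate 3 is the pair whose samples differed in Xist, and the part of that difference in these counts was not tested. Below, "fell" and "rose" are used for genes that passed with the block, and both adjusted p-values, limma without and with the block, are given. The standard error (SE) is that of the fit without the block.

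**Figure D2:**
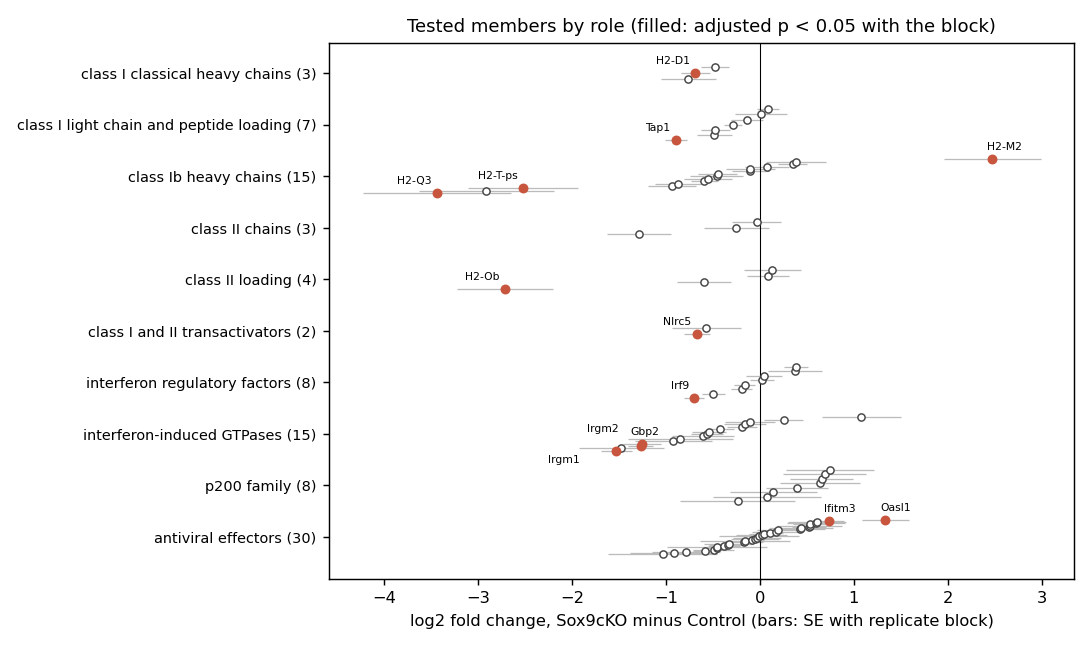
Log2 fold change (x axis, Sox9cKO minus Control) of 95 of the 97 tested genes by role (y axis, number tested in brackets; the STAT factors are not drawn), each point 1 gene with its standard error in limma with the replicate block, filled and named where that fit's adjusted p is under 0.05. The filled points are 10 lower and 3 higher genes, and points of the p200 family and antiviral effectors lie on both sides of 0.

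The steepest losses among the abundant genes were in the interferon-induced GTPases, which attack the membranes of vacuoles that hold intracellular pathogens. Irgm1, a regulatory member of the immunity-related GTPases, had 1915, 1989 and 1244 normalized counts in Control and 797, 800.5 and 307 in Sox9cKO. Every Control sample was above every Sox9cKO sample, and replicate 3 was the lowest in both groups. Irgm1 fell to 37.0% of the Control mean (log2 fold change -1.53, SE 0.39, adjusted p 0.0978, or 0.00384 with the block, limma).

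Irgm2, a second regulatory member, had 734, 724 and 440.1 in Control and 266, 346 and 180.0 in Sox9cKO. The groups did not overlap, and Irgm2 fell to 41.7% of Control (-1.27, SE 0.29, adjusted p 0.0749, or 0.00342 with the block, limma). Gbp2, a guanylate-binding protein, had 757, 784 and 567 in Control and 292, 489.5 and 171 in Sox9cKO, again with no overlap. Gbp2 fell to 45.2% of Control (-1.26, SE 0.36, adjusted p 0.127, or 0.0159 with the block, limma). The 3 GTPase genes were thus lower in Sox9cKO for each replicate number.

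The rest of this group varied. Of 15 tested GTPase genes, 13 had a fold change below 0 (median -0.56, range -1.53 to 1.08), and 7 were lower for all 3 replicate numbers. With the block 3 passed, all lower, where 2.99% of all tested genes passed as lower. Iigp1, the effector GTPase that was the most abundant of them, had 2067, 5769 and 863 in Control and 2814, 3221 and 809 in Sox9cKO. Its level differed more between replicate numbers than between genotypes (-0.16, adjusted p 0.943, or 0.697 with the block, limma), and it passed as lower in the fit with an endothelial covariate described below (-0.86, adjusted p 0.0493, limma). Gbp8 was an exception in direction, with 117, 57.5 and 124 in Control and 144, 331 and 168 in Sox9cKO, but did not pass (1.08, adjusted p 0.225, or 0.167 with the block, limma). Gbp genes are close paralogs, so reads could have been assigned to the wrong member.

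Another 2 GTPase genes belong to the same family but not to the name rule, and come from a list of 37 other interferon-induced genes. Tgtp1 had 433, 381 and 321 in Control and 88.5, 129 and 78.1 in Sox9cKO. It was the one gene of the interferon lists that passed both fits, at 26.0% of Control (-1.95, SE 0.23, adjusted p 0.00686, or 0.00246 with the block, limma), and it passed under all 22 alternative settings (range -2.16 to -1.79). Igtp, the third regulatory member, had 513, 599.6 and 269.6 in Control and 257, 331 and 109 in Sox9cKO. Its groups overlapped, and it fell with the block (-1.05, adjusted p 0.294, or 0.00916 with the block, limma).

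**Figure D3:**
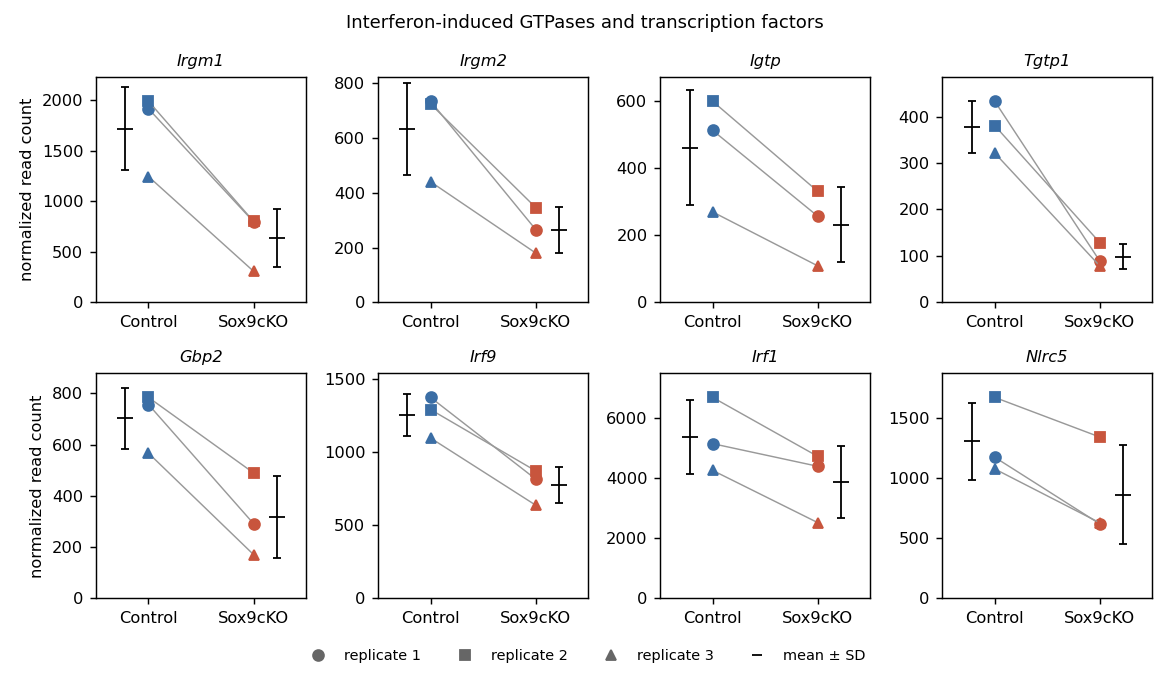
Normalized counts (y axis, from 0) of 5 GTPase genes, of Irf9 and Irf1, and of the class I transactivator Nlrc5 in each Control and Sox9cKO sample (x axis), with symbols for replicates 1 to 3, lines joining the same replicate number, and bars for mean ± SD (n = 3). The line falls from Control to Sox9cKO for every replicate number in all 8 genes, and the Igtp, Irf1 and Nlrc5 groups overlap.

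Among the transcription factors that relay interferon signals, Irf9 fell, by a smaller factor than these GTPase genes. Irf9, which binds the ISRE together with STAT2, had 1376, 1293 and 1098 in Control and 817, 873 and 638.5 in Sox9cKO. The groups did not overlap, and Irf9 fell to 61.8% of Control (-0.70, SE 0.16, adjusted p 0.071, or 0.0123 with the block, limma). Stat2 had 703, 1078 and 596 in Control and 645, 814 and 387 in Sox9cKO, with overlap and no call (-0.38, adjusted p 0.596, or 0.124 with the block, limma). Irf1, the most abundant of the 9 interferon regulatory factors and itself an early target of interferon gamma, had 5159, 6700 and 4267 in Control and 4404, 4734 and 2527 in Sox9cKO. Irf1 was lower for each replicate number but did not pass (-0.49, adjusted p 0.401, or 0.0591 with the block, limma).

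As a group, the interferon regulatory factors showed no common direction: 4 of the 8 tested were below 0 and 4 above, with a median of -0.07. Irf3, which is activated by nucleic acid sensors and needs no induction, had 305, 274 and 268 in Control and 401, 387 and 325 in Sox9cKO. These groups did not overlap, although Irf3 passed neither fit (0.39, adjusted p 0.218, or 0.112 with the block, limma). Irf7, a classical interferon-induced gene, differed by less than the spread between samples (0.02, SE 0.23).

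In the class I pathway, the classical heavy chain H2-D1 and the transporter subunit Tap1 fell. H2-D1, a classical heavy chain, had 12409, 14023 and 11129 in Control and 9547, 9515 and 5078 in Sox9cKO. The groups were apart, with the Sox9cKO replicate 3 sample well under the other 2. H2-D1 fell to 64.3% of Control (-0.69, SE 0.25, adjusted p 0.216, or 0.0452 with the block, limma).

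H2-K1, the other abundant classical heavy chain, had 9371, 9569.8 and 8848 in Control and 6394, 8982 and 5112 in Sox9cKO. It was lower for each replicate number, but Sox9cKO replicate 2 reached the Control range and the gene did not pass (-0.48, adjusted p 0.274, or 0.0957 with the block, limma). H2-K2, a near copy of H2-K1 to which reads could have been misassigned, was the third member (-0.76, adjusted p 0.309, or 0.163 with the block, limma). Summed over the 3 rows, classical heavy chains had 21885, 23772 and 20133 in Control and 16044, 18607 and 10243 in Sox9cKO, with no overlap.

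B2m encodes the light chain that every class I molecule needs. It had 4433, 5664 and 3652 in Control and 3675, 4926 and 2786 in Sox9cKO, which overlapped, and it did not pass (-0.29, SE 0.24, adjusted p 0.60, or 0.116 with the block, limma). Tap1, a subunit of the transporter that brings peptides into the endoplasmic reticulum, had 804, 825 and 541 in Control and 406, 510.3 and 269 in Sox9cKO. Tap1 fell to 54.6% of Control without overlap (-0.89, SE 0.27, adjusted p 0.145, or 0.00931 with the block, limma).

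The other 5 genes of peptide loading did not pass either fit. The partner subunit Tap2 and the immunoproteasome subunit Psmb8 both had a fold change of -0.48 (adjusted p 0.412 and 0.310, or 0.160 and 0.112 with the block, limma). Psmb10 was at -0.14 and Psmb9 at 0.01, although Psmb9 and Tap1 lie side by side in the genome. Tapbp, the chaperone tapasin, had 2520, 2588 and 2635 in Control and 2579, 3292 and 2424 in Sox9cKO, or 107% of Control (0.09, SE 0.14).

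Nlrc5 encodes the transactivator of the class I genes. It had 1171, 1667 and 1074 in Control and 618, 1338 and 627 in Sox9cKO. The groups overlapped through replicate 2, which was the highest in each group, and Nlrc5 fell with the block (-0.67, SE 0.32, adjusted p 0.343, or 0.0360 with the block, limma).

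Per kilobase of merged exons, which allows genes to be compared, the highest Control levels were those of B2m (5329 normalized counts per kb), H2-D1 (4855) and H2-K1 (3153). Irf1 (1352), the class Ib gene H2-Q4 (1345) and Tapbp (711) followed. Class I genes are expressed in resting cells and raised further by interferon. In Sox9cKO the per-kilobase order of the leading 3 was the same, with 4414 for B2m, 3120 for H2-D1 and 2324.5 for H2-K1.

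**Figure D4:**
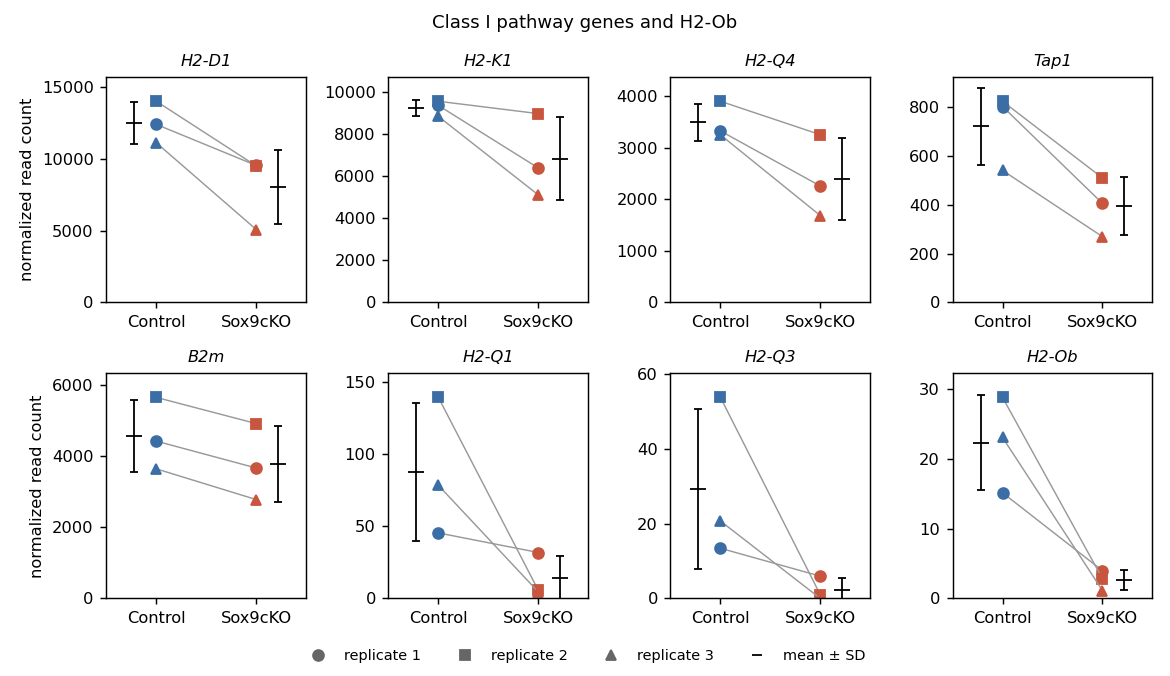
Normalized counts (y axis, from 0) of 7 class I pathway genes and of the class II loading gene H2-Ob in each Control and Sox9cKO sample (x axis), with symbols for replicates 1 to 3, lines joining the same replicate number, and bars for mean ± SD (n = 3, cut off at 0). Control and Sox9cKO do not overlap for H2-D1, Tap1, H2-Q1, H2-Q3 and H2-Ob, and overlap for H2-K1, H2-Q4 and B2m.

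Class Ib genes encode heavy chains with narrower or unknown peptide-presenting roles, and many are near-identical copies, so their single values are uncertain. Of 15 tested, 11 were below 0 and 4 above, with a median of -0.46. H2-Q4, the most abundant, had 3324, 3899.9 and 3249 in Control and 2255, 3251 and 1681 in Sox9cKO. It was lower for each replicate number, and Sox9cKO replicate 2 lay just above the lowest Control sample (-0.59, adjusted p 0.244, or 0.0544 with the block, limma).

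The largest fold changes of the whole gene set were in class Ib genes with few reads. H2-Q3 had 13.4, 53.8 and 20.7 in Control and 5.97, 0.945 and 0 in Sox9cKO, from 16, 58 and 18 reads against 6, 1 and 0. The groups were apart, and H2-Q3 fell with the block (-3.44, SE 0.84, adjusted p 0.0860, or 0.0476 with the block, limma). H2-Q1 had 45.4, 139 and 78.3 in Control and 31.8, 5.67 and 4.53 in Sox9cKO, without overlap and without a call (-2.91, adjusted p 0.0962, or 0.0585 with the block, limma).

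H2-T-ps, a pseudogene, had 53.8, 53.8 and 27.7 in Control and 30.8, 5.67 and 1.13 in Sox9cKO. Its groups overlapped at replicate 1 of Sox9cKO, and it fell with the block (-2.52, adjusted p 0.210, or 0.0490 with the block, limma). H2-M2 went the other way, with 0.841, 4.64 and 4.61 in Control (1, 5 and 4 reads) and 11.9, 52.0 and 13.6 in Sox9cKO (12, 55 and 12 reads). H2-M2 rose with the block (2.47, SE 0.73, adjusted p 0.134, or 0.0359 with the block, limma), and 1 sample, Sox9cKO replicate 2, held most of its reads.

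Class II genes were low in these cells and did not move together. H2-Ab1, the beta chain of I-A, had 316, 226 and 173 in Control and 196, 374 and 156 in Sox9cKO. Its groups overlapped entirely (-0.04, SE 0.36). Its alpha chain partner H2-Aa had 119, 94.7 and 64.5 in Control and 30.8, 74.7 and 20.4 in Sox9cKO.

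H2-Aa was lower for each replicate number but overlapped at Sox9cKO replicate 2 and did not pass (-1.29, adjusted p 0.223, or 0.0675 with the block, limma). H2-Eb1 was at -0.25 and the class II transactivator Ciita at -0.57, neither of which passed. Cd74, the invariant chain that guides class II molecules, is outside the name rule and had 1402, 829.8 and 1175 in Control and 1351, 2946 and 1097 in Sox9cKO, also without a call (0.56, adjusted p 0.499, or 0.377 with the block, limma).

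H2-Ob was the 1 gene that passed without the block. It encodes the beta chain of H2-O, which restrains peptide exchange on class II molecules and is best known from B cells. H2-Ob had 15.1, 28.8 and 23.0 in Control and 3.98, 2.84 and 1.13 in Sox9cKO, from 18, 31 and 20 reads against 4, 3 and 1. The groups were well apart, and H2-Ob fell to 11.9% of Control (-2.72, SE 0.50, adjusted p 0.0355, or 0.0265 with the block, limma).

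The alpha chain gene H2-Oa was too low to test, with 5, 6 and 3 reads in Control and 0 in each Sox9cKO sample. The call for H2-Ob was lost in each of the 5 fits without 1 library in which it could be tested (adjusted p 0.0523 to 0.133, limma), and it was not tested without Control replicate 2, where its mean fell under 10. Of the leukocyte markers, Ptprc, the common leukocyte antigen CD45, had 37.0, 36.2 and 19.6 in Control and 16.9, 12.3 and 1.13 in Sox9cKO, the B-cell gene Cd79a had 26.9, 54.8 and 40.3 against 21.9, 18.9 and 32.8, and Ms4a1 had 3.36, 5.57 and 2.30 against 0, 0.945 and 0. Ptprc and Cd79a passed neither fit (adjusted p 0.266 and 0.383, or 0.0644 and 0.259 with the block, limma), and Ms4a1 was too low to test. Over the list of leukocyte and Kupffer cell markers, 25 of 28 were in the table, 15 were tested, and 12 of these were below 0. Itgax and Lyz2 fell with the block (-1.58 and -1.33, adjusted p 0.0191 and 0.0417, limma), and Csf1r rose in both fits (0.92, adjusted p 0.0142, or 0.00675 with the block, limma). Its summed level was 1385, 1545 and 1202 in Control and 1698, 1837 and 1926 in Sox9cKO, of which Csf1r made up 780.1, 705 and 797 and 1266, 1446 and 1638. The part of leukocytes in the H2-Ob difference was not tested.

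Antiviral effector genes, the products most often read as a sign of type I interferon, did not shift as a group. Of 30 tested, 16 were below 0 and 14 above, with a median of -0.02. With the block 2 passed, both higher, a share near the 8.05% of all tested genes (5.06% as higher). Isg15, a ubiquitin-like modifier, had 122.7, 257 and 62.2 in Control and 145, 189.9 and 49.8 in Sox9cKO. Ifit1, which binds foreign RNA, had 108, 325 and 78.3 in Control and 141, 232 and 41.9 in Sox9cKO.

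Both genes overlapped between the groups (-0.17, SE 0.63, and -0.33, SE 0.72) and were highest in the replicate 2 samples. Rsad2 (viperin, 0.18), Mx2 (-0.03), Ifit3 (-0.46), Usp18 (-0.38) and Bst2 (tetherin, 0.53) did not pass either fit. Ifi27 and Ifi35 were lower without overlap between groups but passed neither limma fit (-0.46 and -0.58).

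The 2 that rose were Oasl1 and Ifitm3. Oasl1, a 2′-5′-oligoadenylate synthetase-like protein that inhibits translation of Irf7, had 119, 326 and 115 in Control and 399.9, 473 and 385 in Sox9cKO. All Sox9cKO samples were above all Control samples, with Control replicate 2 the nearest. Oasl1 rose to 225% of Control (1.34, SE 0.39, adjusted p 0.133, or 0.0274 with the block, limma).

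Ifitm3, a membrane protein that blocks viral fusion, had 364, 596 and 146 in Control and 621, 765.5 and 311 in Sox9cKO. Ifitm3 rose for each replicate number, with overlap between the groups (0.74, SE 0.54, adjusted p 0.539, or 0.0422 with the block, limma). Ifitm3 is abundant in endothelium, and its levels ranked the libraries as the endothelial marker sums did, except that Control replicate 2 and Sox9cKO replicate 1 changed places. With an endothelial score added to limma as a covariate, its fold change was 0.24 (adjusted p 0.377), and that of Oasl1 was 1.08 (adjusted p 0.102). The part of endothelial RNA in either rise was not tested.

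The p200 genes, which encode DNA-binding proteins of innate sensing, varied far more between replicate numbers than between genotypes. Their 10 rows summed to 683, 4869.8 and 179 in Control and 1788, 2849 and 359 in Sox9cKO. Ifi207 alone had 138, 1677 and 54.1 in Control and 547, 954 and 114 in Sox9cKO. Control replicate 2 was the highest of the 6 libraries and Control replicate 3 the lowest, in the sum and in Ifi207 alike.

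None of the 8 tested p200 genes passed without the block (0 also at an unadjusted p under 0.05, and 0 in edgeR and DESeq2), and their direction depended on the fit. In limma 7 of the 8 had a fold change above 0 (median 0.51), in edgeR without the block 7 of the 8 were below 0 (median -0.27), and the Sox9cKO mean was below the Control mean in 6 of the 8. Without the replicate 2 pair, the block fit called Ifi203, Ifi204 and Ifi207 as higher. The endothelial marker sums ranked the libraries nearly as the p200 sums did, from Control replicate 3, through Sox9cKO replicate 3, Control replicate 1 and Sox9cKO replicate 1, to the replicate 2 libraries. All 20 endothelial markers had a fold change above 0 (median 1.09). With the endothelial score as a covariate, all 8 p200 genes were below 0 (median -0.67) and 0 passed (2 at an unadjusted p under 0.05). Ifi207 moved from 0.74 to -0.40 and Ifi203 from 0.39 to -0.71 (adjusted p 0.717 and 0.179, limma). The part of endothelial RNA in the p200 levels was not tested.

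**Figure D5:**
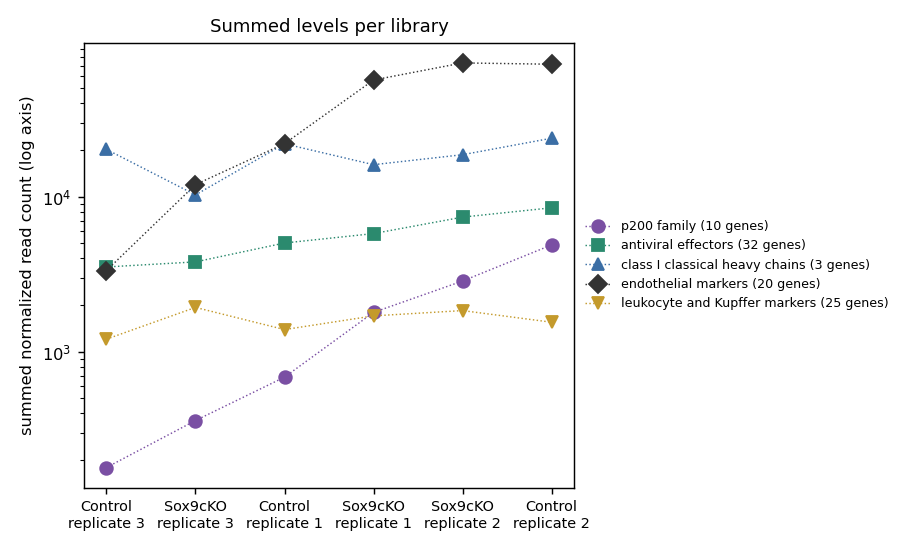
Summed normalized counts (y axis, log scale) per library, with libraries ordered on the x axis by the p200 sum and dotted lines only guiding the eye, for 10 p200 genes, 32 antiviral effectors, 3 classical class I heavy chains, 20 endothelial markers and 25 leukocyte and Kupffer markers. The p200 and endothelial sums climb steeply from left to right, the antiviral sums climb less, and the class I sums are lower in the 3 Sox9cKO libraries than in the 3 Control libraries.

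Irgm1, Irgm2, Gbp2, Tap1 and Irf9 were also lower in Sox9cKO when endothelial markers entered the fit. With the endothelial score as a covariate (an alternative added after the data were seen), limma called 9 of the 97 genes, all lower. Over all 17153 tested genes it called 646, of which 203 were lower. Of the 9, 7 were among the 14 of the block fit. The other 2 were Iigp1 (-0.86, adjusted p 0.0493) and the GTPase gene Ifi47 (-0.94, adjusted p 0.0360). Irgm1 (-1.83, adjusted p 0.00922), Irgm2 (-1.50, adjusted p 0.00567), Gbp2 (-1.49, adjusted p 0.0307), Tap1 (-1.10, adjusted p 0.0150) and Irf9 (-0.80, adjusted p 0.0216) had a larger loss there than without it. H2-D1 (-0.86, adjusted p 0.0592), Nlrc5 (-0.85, adjusted p 0.153) and H2-T-ps (-3.02, adjusted p 0.0913, limma) fell with the block but did not pass there. The part of endothelial RNA in these differences was not tested.

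The listed receptor, kinase and sensor genes did not show the same loss as groups. Interferon genes were barely measured: 2 of 15 listed were in the table, neither with enough reads to be tested, with sums of 5.04, 8.35 and 3.46 in Control and 1.99, 7.56 and 7.92 in Sox9cKO. Of the 9 interferon receptor and Janus kinase genes, 7 were above 0 (median 0.37) and 7 were higher for all 3 replicate numbers. With the block 1 passed, where 8.05% of all tested genes passed. This was Ifnar1, a chain of the type I interferon receptor, with 891, 832 and 683 in Control and 1160.1, 1238 and 1001 in Sox9cKO.

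Ifnar1 rose with no overlap (0.50, SE 0.15, adjusted p 0.134, or 0.0359 with the block, limma), opposite in direction to Irf9. Of 14 tested nucleic acid sensors and adaptors, 1 passed with the block, a share near the 8.05% of all tested genes. It was Ikbke, a kinase that activates IRF3 and IRF7, with 783, 1081 and 952 in Control and 1328, 2328 and 2398 in Sox9cKO. Ikbke rose to 215% of Control (1.07, SE 0.25, adjusted p 0.0763, or 0.00630 with the block, limma). The 12 tested negative regulators of interferon signalling were split 6 to 6 around 0, with 0 calls in either fit and 1 at an unadjusted p under 0.05.

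Among 24 tested accessory genes of class I and II presentation, 2 passed with the block, both higher, a share near the 8.05% of all tested genes. Cd1d1, which presents lipids to natural killer T cells, had 106, 59.4 and 41.5 in Control and 278, 182 and 169 in Sox9cKO. Cd1d1 rose to 304% of Control without overlap (1.66, SE 0.37, adjusted p 0.0652, or 0.00499 with the block, limma). Lgmn, an endosomal protease that cuts antigen, was the second (0.82, adjusted p 0.524, or 0.0390 with the block, limma).

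In the list of other interferon-induced genes, 34 were tested and 20 were below 0 (median -0.13). With the block 3 fell (Tgtp1, Igtp and Parp14) and 2 rose (Lgals9 and Lgals3bp). Of all tested genes, 2.99% passed that fit as lower and 5.06% as higher. Parp14, an ADP-ribosyltransferase, had 3129, 5565 and 2947 in Control and 2462, 3629.9 and 1800.0 in Sox9cKO, lower for each replicate number (-0.56, adjusted p 0.424, or 0.0294 with the block, limma). Lgals9, a galectin, had 813, 714 and 633 in Control and 1343, 1022 and 884 in Sox9cKO, with no overlap (0.57, adjusted p 0.161, or 0.0267 with the block, limma). Lgals3bp, a secreted glycoprotein, was the other (0.62, adjusted p 0.217, or 0.0201 with the block, limma).

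The 13 untested genes had means of at most 9.64 normalized counts. They were Ifi214, Ifi205, Oas1e, Irf4, Ifi27l2a, H2-DMb2, H2-Oa, H2-Bl, H2-T3, H2-M5, H2-Ke6, H2-Pb and H2-Pa. When no filter was applied, H2-Oa was also called, as lower.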

How the data were processed

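Total RNA was extracted (RNAqueous Micro Kit), depleted of ribosomal RNA and made into stranded libraries with molecular identifiers (Takara's SMARTer Pico kit), per the labels' protocols. The submitters' processing notes name DESeq2 1.36.0 and GRCm39. The aligner, counting program, annotation and use of strand and identifiers are not given in the sources used here. The authors deposited a signal per gene, namely counts divided by 1 size factor per sample, as the deposited values show: whole reads were recovered for 100% of values (tolerance 0.001 reads). The lowest gene total was 10 reads. Precision from read numbers covers counting error only.

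On the log2(value + 1) scale, limma 3.58.1 (R 4.3.3, intensity trend, two-sided, Benjamini-Hochberg, threshold 0.05) compared the groups without a block, for genes averaging 10 or more. The pseudocount understates changes of low genes. The labels number replicates 1 to 3 in each group. Same-numbered samples deviated together over 17153 genes (correlations of deviations from group means 0.207, 0.472 and 0.542), so a blocked fit is given too. Over the 97 genes the correlations were -0.04, 0.60 and 0.68, so the replicate 1 samples did not deviate together there. Alternatives were no filter or one at a mean of 50, pseudocounts of 0.1 and 5, quantile or TMM scaling, sample weights, no trend, edgeR 4.0.16 (with and without block), DESeq2 1.42.0, and leaving out each sample. An endothelial covariate and block fits without 1 replicate number were added after the data were seen. The scripts were tested on simulated data.

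The genes, lists and tests were chosen with earlier results of these data known. Named genes were the called ones, the 3 most abundant and the 2 with the smallest p per role, a preset set of pathway genes, and called genes of the other lists. Igtp, Gbp2, H2-M2, H2-T-ps, Cd1d1, Lgmn, Ifnar1, Ikbke, Lgals9, Lgals3bp, Parp14, Gbp8, Ifi47 and the marker genes printed were named after their values were seen. The values of 1 gene of the set, which is in the counts, are not reported here. Exon lengths came from GENCODE M21 (GRCm38), which matched 110 of 110 genes.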

Additional observations from a re-analysis of the deposited data

How the results depend on the processing

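Without the block, 1 of the tested genes of the set passed. There were 2 with no filter, 0 with a minimum mean of 50 (16 at an unadjusted p under 0.05), 3 with quantile normalization, 6 with sample weights, 10 in DESeq2, and 9 with the endothelial covariate. With the replicate block the count was 14 in limma and 12 in edgeR, 11 of them shared. Leaving out 1 library gave 0 to 1. The block fit gave 11 without replicate 1, 18 without replicate 2 and 1 without replicate 3. Over all genes, 510 were called without the block, 1381 with the replicate block in limma and 1160 with it in edgeR. There were 1043 with sample weights, 1214 in DESeq2, 646 with the endothelial covariate, and 200 to 389 without 1 library. The block fit called 1049, 1504 and 232 genes without replicates 1, 2 and 3. For these counts the cause was not tested. The median fold change of the set lay between -0.59 and 0.088 over the 22 alternatives. It was above 0 with sample weights, without Control replicate 2 and without Sox9cKO replicate 3. Each alternative was compared with limma without the block for 67 named genes, which did not include Gbp8, Ifi47 or the marker genes. The sign was opposite in 0 genes where either of the 2 fits called the gene. In 26 genes it was opposite in some alternative where neither fit called the gene (116 of 1458 values). Among these 26, Ifi203, Ifi204, Ifi207 and Iigp1 were each called in 1 other alternative. Depth limits genes with few reads, such as H2-Ob, H2-Q3 and H2-M2.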
